A study of Mus musculus with 18 samples.

Results

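The Hox genes of the mouse uterus were followed through 18 RNA libraries. Members were taken by name from the deposited expression table: every symbol made of Hox, a cluster letter from a to d and digits. This rule found 39 of the 25791 genes in the table, 11 in the HoxA cluster, 10 in HoxB, 9 in HoxC and 9 in HoxD. Of these, 28 reached at least 1 FPKM (a fragment count scaled by transcript length and by the mapped fragments of the library) in 3 or more libraries and could be tested, among 13898 such genes in all. The study compared wild-type mice (WT) with mice described as uterine-specific Tsc2-null (KO), all on a mixed 129Sv X C57BL/6 background. TSC2 restrains the growth kinase complex mTORC1. All uteri were taken at 12 weeks of age as cross sections. Intact mice kept their ovaries. The mice called ovx here were oophorectomized at 4 weeks and given no hormone. The mice called E2 were oophorectomized at the same age and carried a pellet of 0.5 mg 17β-estradiol with a release of 90 days for 8 weeks. Each of the 6 combinations of genotype and hormone state had 3 libraries. The labels do not name the promoter or Cre line that removes Tsc2. They also leave unsaid if the 3 libraries of a group are 3 mice, and the p-values then reflect no more than library-to-library spread, which may be technical. A library here is a mixture of all cells of the tissue, in which fewer cells of a type and less RNA per cell cannot be told apart.

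Hox genes encode homeodomain transcription factors that give cells along the body axis their regional identity. They lie in clusters, and the order of genes along a cluster, numbered by paralog group, follows the order of the regions they pattern, from low numbers toward the head to high numbers toward the tail. In the female reproductive tract, Hoxa9 is a regional gene of the oviduct, Hoxa10 and Hoxa11 of the uterus and Hoxa13 of the cervix and vagina. In the adult uterus, Hoxa10 and Hoxa11 are known for their need in stromal cells at implantation and for their response to ovarian steroids.

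Several facts of the libraries touch the results. FPKM summed over all genes ran from 216032 to 591668 per library, and the table holds no read counts, so depth is unknown. Tsc2 stood at 2.04 to 2.51 FPKM in WT intact against 1.62 to 1.98 in KO intact, at 3.17 to 3.49 against 2.39 to 3.33 in the ovx state and at 2.38 to 2.73 against 1.75 to 2.42 in the E2 state. Its averaged log2 difference of -0.18 ± 0.07 (SE) was not past the threshold (limma adjusted p = 0.158), and the table gives whole-gene levels that need not show a partial deletion. WT intact replicate 4 and KO ovx replicate 4 stood apart from their groups in stroma and smooth muscle markers. Both were picked after seeing the data, and other libraries were also uneven. The mean correlation with the own group was 0.891 for WT intact replicate 4 and 0.921 for KO ovx replicate 4. It was 0.907 for WT intact replicate 1 and 0.898 to 0.920 for the 3 KO E2 libraries. Shares of all tested genes called are given only for fits with all 18 libraries. A list of 10 uterine stroma markers, all detected in every library, summed to 66.6 FPKM in WT intact replicate 4 against 407 and 575 in the other WT intact libraries, and to 148 in KO ovx replicate 4 against 342 and 380. A list of 10 smooth muscle markers, also all detected, summed to 73.6 against 136 and 464, and to 262 against 879 and 1054. In the 3 KO E2 libraries the stroma sums were 1163, 214 and 1090 FPKM in replicate order, and Epcam, a surface protein of epithelial cells, stood at 9.37, 101 and 14.7. The libraries were also grouped into sets by the spacing of the lowest values of the table, with the number of sets fixed at 4 rather than found. The labels do not name these sets. No set held both intact and oophorectomized libraries.

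The tested members ran from Hoxa3 to Hoxa11, Hoxb2 to Hoxb9, Hoxc4 to Hoxc11 and Hoxd3 to Hoxd11. Between these ends only Hoxc5 fell below the filter, and the last genes of each cluster were below it. None of Hoxa13, Hoxb13, Hoxc12, Hoxc13, Hoxd12 or Hoxd13 passed the filter, nor did Hoxa2, Hoxb1, Hoxc5 and Hoxd1. Hoxa2 reached 0.707 FPKM in WT ovx replicate 3, its highest library. The tested members numbered 8 in HoxA, 8 in HoxB, 6 in HoxC and 6 in HoxD. Evx1 and Evx2, the homeobox neighbours of the HoxA and HoxD clusters, and the caudal genes Cdx1, Cdx2 and Cdx4, which activate Hox genes in the embryo, together reached no more than 0.217 FPKM in a library.

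In WT ovx uteri the order of levels was led by Hoxa10, at 39.2 ± 6.01 FPKM (SD, n = 3). Hoxa11 followed at 19.0 ± 4.13, Hoxd9 at 15.6 ± 1.95, Hoxd10 at 13.2 ± 0.36 and Hoxd4 at 11.1 ± 3.62. Neighbours after Hoxa10 in this order overlapped in their libraries, apart from Hoxd9, whose lowest library at 13.6 was just above the highest of Hoxd10 at 13.5. In WT E2 uteri the order was led instead by HoxB members: Hoxb6 at 18.9 ± 3.81, Hoxb7 at 16.3 ± 2.74 and Hoxb8 at 9.66 ± 1.42, with Hoxa10 in the sixth place at 5.76 ± 1.47. Hoxb7 and Hoxb6 also led in WT intact uteri, at 21.6 ± 5.80 and 17.7 ± 4.17 FPKM. That order depended on WT intact replicate 4, and in replicate 1 Hoxa11 and Hoxa10 led, at 29.3 and 28.4 FPKM. The HoxB cluster held 15.8% to 21.1% of the summed Hox FPKM in WT ovx libraries and 56.5% to 64.8% in WT E2 libraries.

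**Figure D1:**
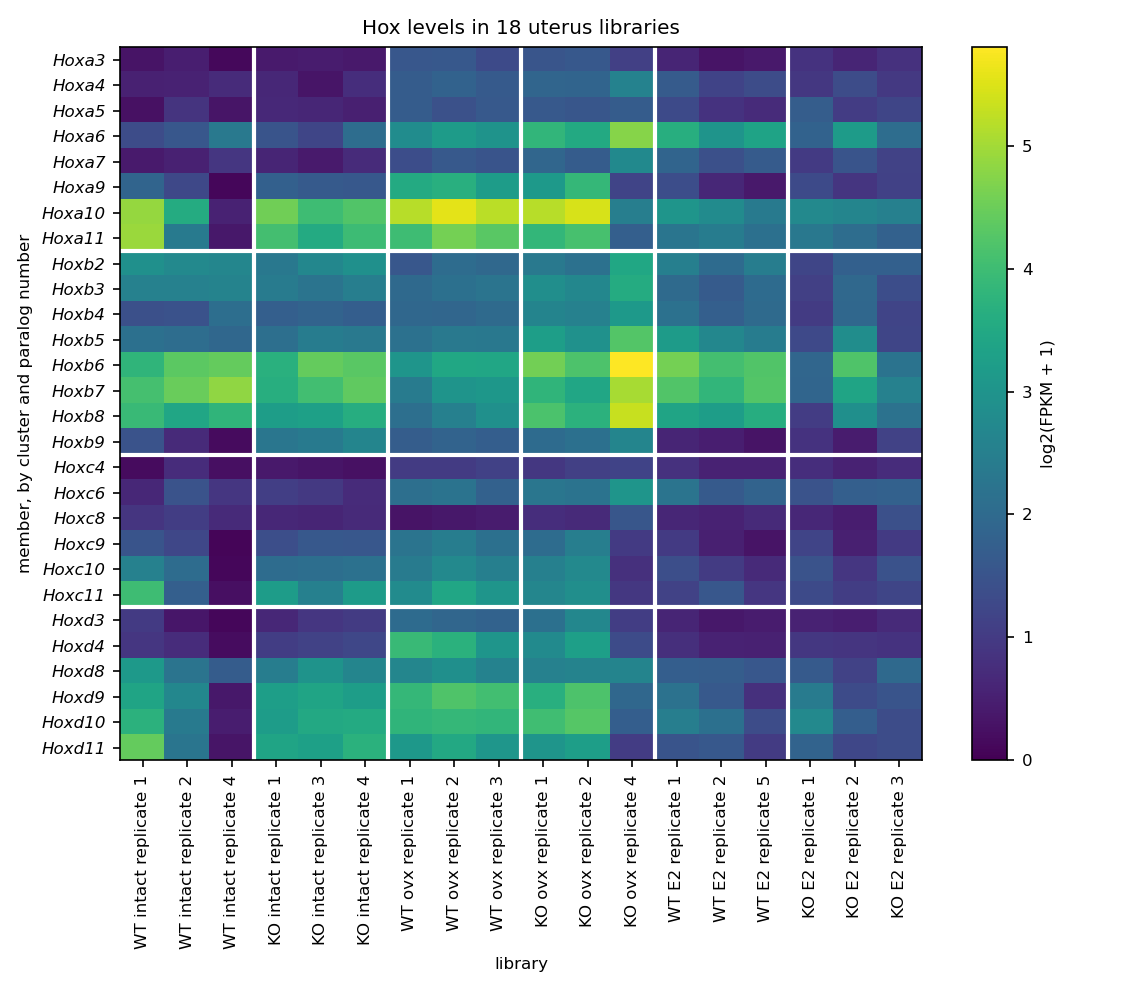
Level of the 28 tested Hox members (rows, by cluster and paralog number) in the 18 libraries (columns), as log2(FPKM + 1). Hoxa10 is bright in the WT ovx columns and in KO ovx replicates 1 and 2, Hoxa11 is brightest in WT intact replicate 1 at 29.3 FPKM, and Hoxb6 in KO ovx replicate 4 at 54.8 FPKM.

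Sequence upstream of the start was looked up for members called lower with estradiol and for a HoxB member that was not. RefSeq promoters on GRCm38.p6 were matched by symbol for 16 of the 28 tested members. The 250 bases before the start are printed for Hoxa10 (chr6:52234940-52235189, minus strand), Hoxa11 (chr6:52245811-52246060, minus strand), Hoxd10 (chr2:74691641-74691890, plus strand) and Hoxd4 (chr2:74721728-74721977, plus strand), which were lower in WT E2 than in WT ovx, and for Hoxb8 (chr11:96281655-96281904, plus strand), of the HoxB group that was not. Each runs 5′ to 3′ along the gene's strand, with capitals at matches on either strand to 3 motifs. The CCAAT box and the TATA box, searched as TATAAA, are common promoter elements. GGTCA is an arm of the estrogen response element.
Hoxa10: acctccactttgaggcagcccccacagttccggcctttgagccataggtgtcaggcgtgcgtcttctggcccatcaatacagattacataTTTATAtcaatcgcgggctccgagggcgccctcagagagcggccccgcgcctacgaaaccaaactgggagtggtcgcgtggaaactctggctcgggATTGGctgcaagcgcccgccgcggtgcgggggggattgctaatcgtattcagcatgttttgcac
Hoxa11: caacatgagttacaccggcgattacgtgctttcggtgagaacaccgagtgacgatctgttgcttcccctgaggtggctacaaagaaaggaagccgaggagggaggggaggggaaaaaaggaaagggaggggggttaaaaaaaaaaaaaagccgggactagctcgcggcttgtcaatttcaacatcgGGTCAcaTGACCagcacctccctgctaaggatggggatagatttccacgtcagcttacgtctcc
Hoxd10: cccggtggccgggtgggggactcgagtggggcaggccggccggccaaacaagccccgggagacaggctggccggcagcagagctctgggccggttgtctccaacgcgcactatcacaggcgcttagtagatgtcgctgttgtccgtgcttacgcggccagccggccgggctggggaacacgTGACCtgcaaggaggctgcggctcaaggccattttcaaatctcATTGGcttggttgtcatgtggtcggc
Hoxd4: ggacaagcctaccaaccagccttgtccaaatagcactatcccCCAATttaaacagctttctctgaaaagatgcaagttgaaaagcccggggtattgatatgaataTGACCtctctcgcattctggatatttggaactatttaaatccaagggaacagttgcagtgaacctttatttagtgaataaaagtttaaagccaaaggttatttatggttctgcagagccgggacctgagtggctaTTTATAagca
Hoxb8: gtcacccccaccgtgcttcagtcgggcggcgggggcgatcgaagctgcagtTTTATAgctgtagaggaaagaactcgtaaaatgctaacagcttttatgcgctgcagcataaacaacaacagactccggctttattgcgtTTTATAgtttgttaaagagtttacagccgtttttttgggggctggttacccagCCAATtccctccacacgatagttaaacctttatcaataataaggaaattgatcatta
The Hoxa11 window holds GGTCA and its reverse complement TGACC as neighbours. Hoxd10 and Hoxd4 each hold GGTCA on a strand, and the printed Hoxa10 and Hoxb8 windows do not hold it. Another Hoxa10 promoter, at chr6:52240855-52241104, is not printed and held none of the motifs searched. GGTCA was found in 8 of the 18 Hox promoters and in 35.2% of all 32851 promoters of the same length. The full element, GGTCA and TGACC with any 3 bases between them, was found in none of the 18 and in 0.0639% of all. CCAAT was found in 8 of 18 against 33.8% of all, and TATAAA in 3 of 18, namely of Hoxa10, Hoxb8 and Hoxd4, against 12.4%. A composite site for a Hox protein with its PBX partner, TGATTNAT, was found in 1 of 18 against 2.82%, and the MEIS site TGACAG in 1 of 18 against 15.9%. TGTTCT, an arm of the progesterone response element, was found in 2 of 18, of Hoxa9 and Hoxa11, against 16.1%. Motifs could overlap, GGTCA being part of the full element. These matches describe letters in the window only.

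The question of estradiol in the absence of ovaries was addressed first in wild-type uteri. Estradiol went with lower levels of the HoxA, HoxC and HoxD members of paralog groups 9 to 11, the group that patterns the tract, while most HoxB members did not fall. Against WT ovx, 15 members were lower and 1 was higher in WT E2 (adjusted p under 0.05), where 47.5% of all tested genes were called, 15.2% as lower and 32.3% as higher. The median log2 change was -0.84 over the 28 members and 0.24 over all tested genes. Of the 10 members of paralog groups 9 to 11, 9 were called lower, and the tenth, Hoxd11, had -1.84. Of the 18 members of groups 2 to 8, 6 were called lower and Hoxb7 higher.

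Hoxa10 showed the size of the difference. Its levels were 35.4, 46.2 and 36.1 FPKM in WT ovx and 7.13, 5.93 and 4.21 in WT E2. The groups were far from overlapping, with a log2 change of -2.59 ± 0.84 (SE, limma adjusted p = 0.0201). Its neighbour Hoxa11 stood at 14.9, 23.2 and 19.1 FPKM in WT ovx and at 3.80, 4.41 and 3.40 in WT E2. No library of either group crossed into the other, and the log2 change was -2.02 ± 0.80 (limma adjusted p = 0.0492). Hoxa9, the oviduct gene of the cluster, had a log2 change of -2.66 ± 0.53 (adjusted p = 0.00112).

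The HoxD members moved together, 5 of 6 being called lower. Hoxd4 had the largest difference of all members. It stood at 14.2, 12.0 and 7.17 FPKM in WT ovx and at 0.721, 0.468 and 0.448 in WT E2, so that every ovx library was above every E2 library. Its log2 change was -2.93 ± 0.37 (limma adjusted p = 8.09e-05). Hoxd4 and Hoxd3 share a locus with Mir10b in the table, so reads of overlapping transcripts may be split between them. Hoxd10, which with Hoxd9 patterns limbs and the tail end of the trunk, stood at 12.8, 13.5 and 13.1 FPKM in WT ovx and at 4.59, 3.40 and 1.55 in WT E2. The E2 libraries were again lower without overlap (log2 change -1.83 ± 0.71, limma adjusted p = 0.0441). Hoxd9 changed by -2.50 ± 0.65, Hoxd3 by -1.46 ± 0.31 and Hoxd8 by -1.05 ± 0.29. In HoxC, Hoxc4, Hoxc9, Hoxc10 and Hoxc11 were called lower, with log2 changes from -0.40 to -1.88.

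HoxB behaved differently in the wild type, with 1 member called each way. Hoxb7 was the higher one. It stood at 4.35, 6.97 and 7.46 FPKM in WT ovx and at 17.8, 13.1 and 17.9 in WT E2, without overlap (log2 change 1.26 ± 0.41, limma adjusted p = 0.0201). Its call ended under quantile normalization, where the log2 change was 0.55, and without WT ovx replicate 1, WT E2 replicate 1 or WT E2 replicate 5. Hoxb6 stood at 7.12, 9.97 and 9.74 FPKM in WT ovx and at 23.1, 15.8 and 17.7 in WT E2, and Hoxb8 at 3.35, 4.74 and 6.54 against 9.43, 8.37 and 11.2. Neither passed the threshold, although the E2 libraries were above all ovx libraries for both. Hoxb9, the highest-numbered tested member of the cluster, was the lower one, at 2.27, 2.62 and 2.35 FPKM in WT ovx and 0.518, 0.401 and 0.239 in WT E2 (log2 change -1.30 ± 0.27, limma adjusted p = 0.00148). Within the 2 sets of libraries that held both WT E2 and WT ovx, all 16 called members kept their direction. None of the 16 overlapped between these groups, so that direction was fixed in advance and is no check on the sets. Within the 2 sets, Hoxa10 had log2 differences of -2.82 and -2.65.

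Leaving out libraries lowered this count, to between 8 and 12 members: 8 without WT E2 replicate 5, 9 without WT ovx replicate 1 and 10 without WT ovx replicate 2 or 3. The 8 that were called whichever library was left out were Hoxa3, Hoxa9, Hoxb9, Hoxc9, Hoxd3, Hoxd4, Hoxd8 and Hoxd9. The calls of Hoxa11 and Hoxd10 ended whichever library was left out, with log2 changes from -1.51 to -2.18, and that of Hoxa10 ended without WT ovx replicate 2 or WT E2 replicate 5, at -2.41 to -2.73. Epithelial markers moved with the same comparison. Of the list of 10 uterine epithelium markers, 8 were called higher in WT E2, its sum being 55.3 to 122 FPKM in WT ovx and 987 to 2848 in WT E2. All 6 tested markers of the squamous epithelium of cervix or vagina, of 9 listed, were also called higher, as were 3 of 7 neutrophil and 3 of 6 tested macrophage markers, and 5 of 8 blood endothelium markers were lower. Of the 10 stroma markers, 4 were called lower, with sums of 492 to 571 and 163 to 236. The part of these shifts in the Hox differences was not tested.

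**Figure D2:**
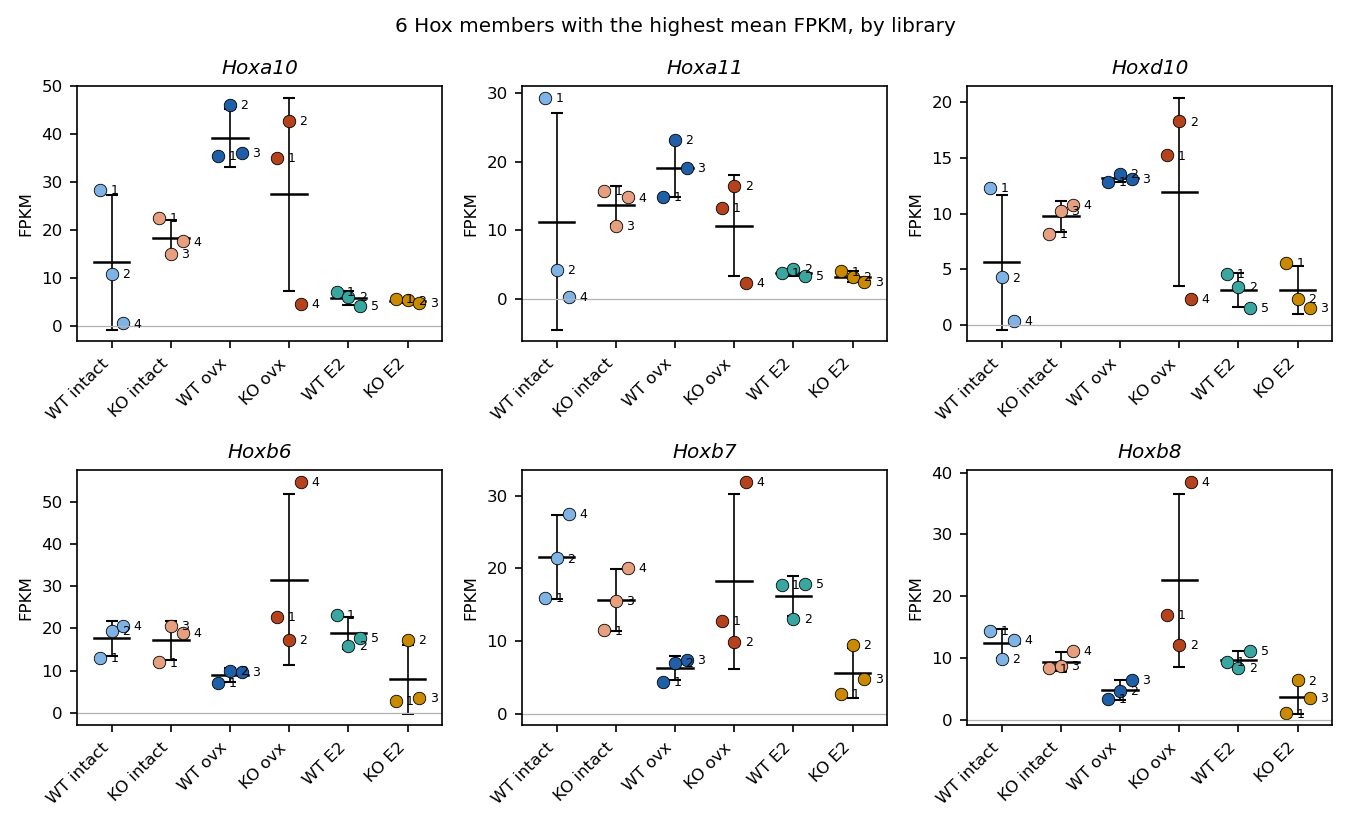
Level in FPKM of the 6 Hox members with the highest mean, by group, 1 point per library with its replicate number, a line at the mean of 3 libraries and bars of 1 SD. The top row shows Hoxa10, Hoxa11 and Hoxd10, low in all E2 libraries, and the bottom row Hoxb6, Hoxb7 and Hoxb8, highest in KO ovx replicate 4.

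In KO uteri the same comparison took in the HoxB cluster. All 28 members had a negative log2 change from KO ovx to KO E2, and 17 were called lower and none higher, against 27.1% of all tested genes called and 11.2% called lower. The median log2 change was -1.28 over the members and 0.07 over all tested genes. All 8 tested HoxB members were called, as were 5 of 8 in HoxA, 3 of 6 in HoxD and 1 of 6 in HoxC. Of the 17 calls, 12 held whichever library was left out. That of Hoxa9 held only without KO ovx replicate 4, those of Hoxb7 and Hoxc6 ended without KO ovx replicate 4 or KO E2 replicate 1, that of Hoxb2 without KO E2 replicate 1 and that of Hoxd8 without KO E2 replicate 2. A term for the sets of libraries ended the calls of Hoxa9, Hoxb2, Hoxb7 and Hoxd8. Hoxb8 had the largest called change. It stood at 17.0, 12.2 and 38.5 FPKM in KO ovx and at 1.05, 6.40 and 3.56 in KO E2, with no overlap (log2 change -2.36 ± 0.42, limma adjusted p = 0.000853). Hoxb6 stood at 22.7, 17.2 and 54.8 FPKM in KO ovx and at 2.77, 17.3 and 3.59 in KO E2. Here KO E2 replicate 2 reached the lowest KO ovx library, so the groups touched (log2 change -2.08 ± 0.50, limma adjusted p = 0.00693). Hoxb7 stood at 12.8, 9.85 and 31.9 FPKM against 2.70, 9.46 and 4.81 (log2 change -1.49 ± 0.41, limma adjusted p = 0.0151). Replicate 2 was again the highest of the E2 libraries in all 3 genes.

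Of the 15 members called lower in WT E2, 6 were called lower in KO E2 with all libraries: Hoxa3, Hoxa9, Hoxb9, Hoxd3, Hoxd4 and Hoxd8. The uterine paralogs were not among them. Hoxa10 stood at 35.0, 42.8 and 4.62 FPKM in KO ovx and at 5.60, 5.28 and 4.77 in KO E2. The first and second of the KO ovx libraries were like the WT ovx libraries and the last was as low as the E2 libraries. Hoxa11 stood at 13.3, 16.4 and 2.38 FPKM in KO ovx and 4.04, 3.20 and 2.47 in KO E2, and Hoxd10 at 15.2, 18.3 and 2.33 against 5.61, 2.34 and 1.55. None of the 3 passed the threshold with all libraries. Without WT intact replicate 4 and KO ovx replicate 4, 24 members were called lower in KO E2 than in KO ovx. The shares of all tested genes given above for this comparison are of the fit with all libraries. The members gained were Hoxa10, Hoxa11, Hoxc9, Hoxc10, Hoxc11, Hoxd9, Hoxd10 and Hoxd11, and Hoxc6 was lost. Hoxa10 then had a log2 change of -2.68 ± 0.32 (limma adjusted p = 5.99e-05). The libraries left out were chosen after seeing the data. KO ovx replicate 4 was the lowest of its group for Hoxa10, Hoxa11 and Hoxd10, so these gained calls depend on that choice. Blood cell markers moved with this comparison: all 7 neutrophil markers, and all tested markers of macrophages (6), lymphocytes (3) and erythrocytes (3), were called higher in KO E2. The neutrophil sums were 19.6 to 229.9 FPKM in KO ovx and 1387 to 14419 in KO E2. Their part in the Hox differences was not tested. Within the set that held 3 KO ovx libraries and 1 KO E2 library, all 17 called members kept their direction. These libraries are among those that made the calls, so the shared direction is no separate check of them.

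KO ovx replicate 4 held opposite extremes. It was the highest of all 18 libraries for 14 of the 28 members, among them all 8 HoxB members, and the lowest of its group for 12. WT intact replicate 4 was the lowest of all 18 for 13 members, every one of them in HoxA, HoxC or HoxD except Hoxb9, and the highest of none. Its Hoxa10 level was 0.474 FPKM and its Hoxb7 level 27.5 FPKM. In KO E2 replicates 1 and 3, whose Epcam values were 9.37 and 14.7 FPKM, the HoxB cluster summed to 12.2 and 19.8 FPKM. In KO E2 replicate 2, with Epcam at 101 FPKM, it summed to 47.9. The HoxA sums of these 3 libraries were 19.4, 22.6 and 16.4 FPKM, in replicate order. The 7 adipocyte markers summed to 439, 4.93 and 2403 FPKM in the same order, to 144 in KO ovx replicate 4 and to between 0.160 and 47.5 in the other 14 libraries, where Lep, Adipoq and Retn were often listed at 0. What part these cell markers have in the HoxB levels was not tested.

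**Figure D3:**
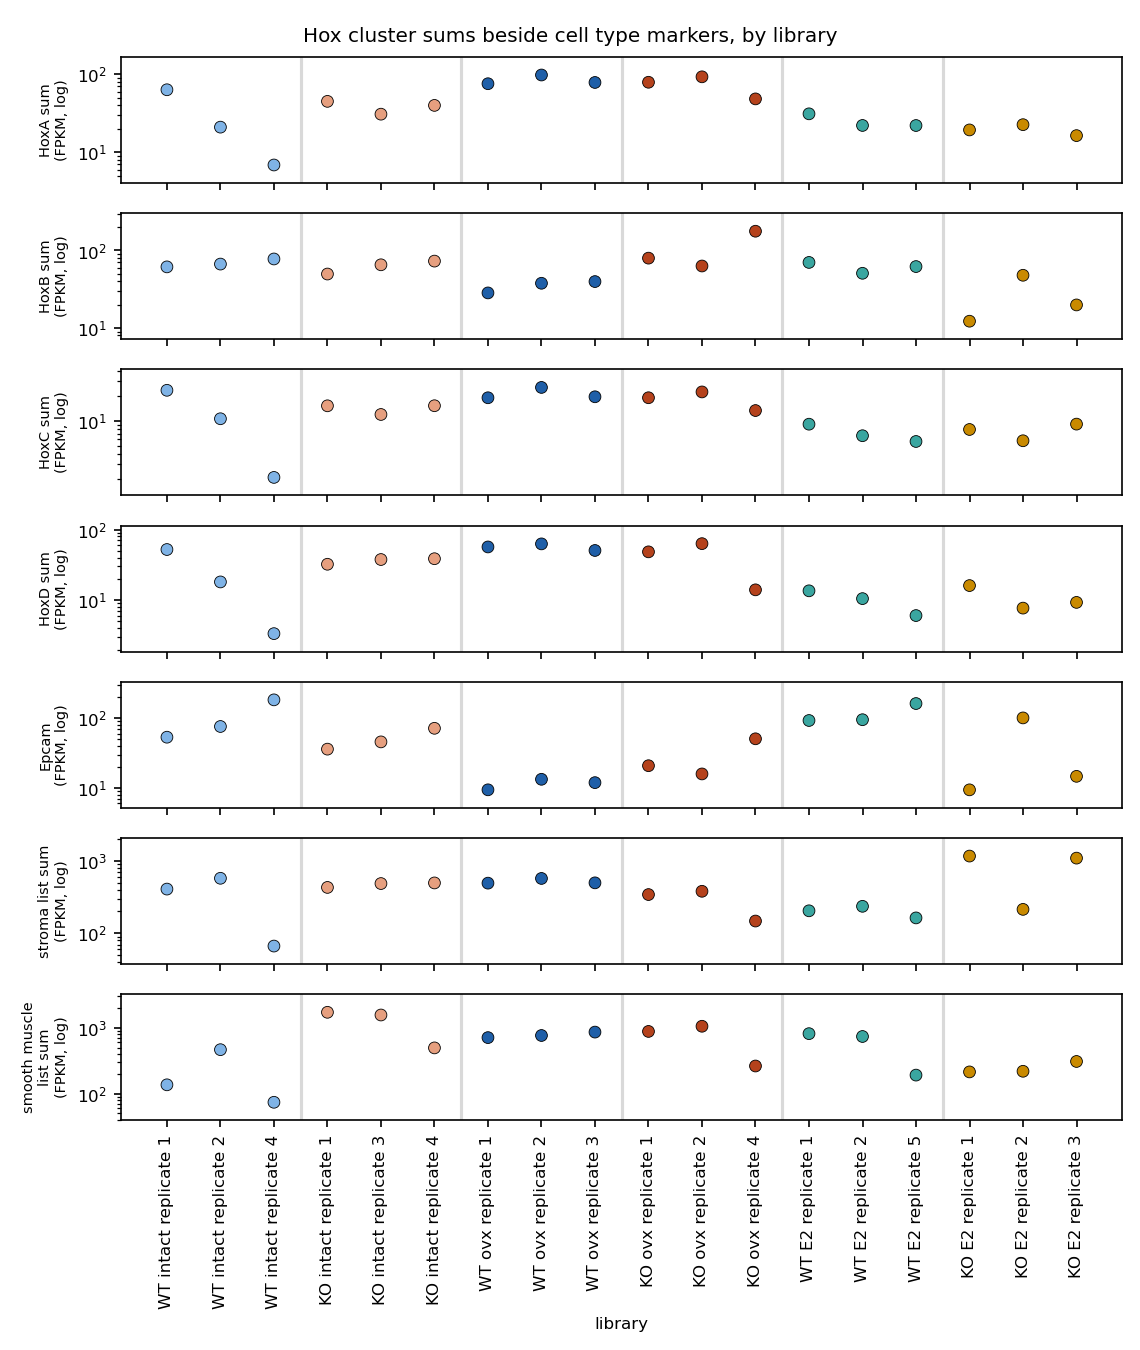
Summed FPKM of each Hox cluster, the level of Epcam and the sums of the stroma and smooth muscle marker lists, by library, each on a log axis. KO ovx replicate 4 has the highest HoxB sum, 177 FPKM, with low HoxD, stroma and smooth muscle sums for its group, and KO E2 replicates 1 and 3 have low HoxB sums beside low Epcam.

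The estradiol response itself differed between genotypes for 8 members, all with a lower response in KO: Hoxa6 and Hoxb2 to Hoxb8, against 11% of all tested genes called and 6.95% called lower. Hoxb8 had the largest difference of responses, -3.25 ± 0.59 on the log2 scale (limma adjusted p = 0.00563). In the wild type Hoxb8 had a log2 change of 0.89 that was not called, and in KO one of -2.36. Hoxb6 differed by -3.08 ± 0.71 and Hoxb7 by -2.75 ± 0.58. Members of paralog groups 9 to 11 were called in neither direction, with differences from -0.15 to 1.04. Leaving out each library in turn gave 2 to 10 calls, Hoxb7 and Hoxb8 being called whichever was left out. Without WT ovx replicate 1 the count was 2, without KO E2 replicate 1 it was 3, and without KO ovx replicate 4 or WT E2 replicate 1 it was 4, and without WT E2 replicate 5 it was 5. Without both libraries that stood apart the same 8 members were called, and a term for the sets of libraries ended the call of Hoxb2. A fit with a replicate block ended all 8 calls, those of Hoxb7 and Hoxb8 included. This comparison shares its libraries with the E2 comparisons above. Of the 10 epithelium markers, 5, among them Epcam, also had a called lower response in KO, and 2 of 10 stroma, 4 of 8 blood endothelium, 4 of 7 neutrophil, 2 of 6 tested macrophage and 1 of 3 tested lymphocyte markers a higher one. Their part was not tested.

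Intact uteri were compared with ovx uteri to ask what the presence of ovaries goes with. In the wild type, 14 members were lower and 3 higher in intact than in ovx uteri, against 45.3% of all tested genes called, 15.4% as lower and 29.9% as higher. The median log2 change was -1.01 over the members and 0.21 over all tested genes. HoxA was lower nearly throughout, with 7 of 8 members called: Hoxa3 by -1.18 ± 0.16, Hoxa4 by -1.12 ± 0.20 and Hoxa9 by -2.39 ± 0.53 on the log2 scale. Hoxd4 again had the largest change, with 0.898, 0.659 and 0.142 FPKM in WT intact (log2 change -2.94 ± 0.37, limma adjusted p = 6.69e-05). Hoxa3 to Hoxa6 lie at a shared locus in the table, so their reads cannot be assigned with certainty. The called higher members were Hoxb2, Hoxb7 and Hoxb8, with log2 changes of 0.91, 1.63 and 1.21. Hoxb7 was called whichever library was left out. The call of Hoxb2 ended without WT intact replicate 1 or WT ovx replicate 1, and that of Hoxb8 in 4 of 6 cases, namely without WT intact replicate 1 or 4 or WT ovx replicate 1 or 2, and under quantile normalization, where the change was 0.81. Of the 17 calls, 11 held whichever library was left out. Hoxb7 stood at 15.9, 21.4 and 27.5 FPKM in WT intact, all above the WT ovx libraries. Hoxb6 stood at 12.9, 19.4 and 20.7 FPKM and Hoxb8 at 14.4, 9.87 and 13.0.

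The uterine paralogs varied widely among the WT intact libraries. Hoxa10 stood at 28.4, 10.9 and 0.474 FPKM there, in replicates 1, 2 and 4. Its log2 change against WT ovx was -2.32 ± 0.84 (limma adjusted p = 0.0355). The call ended without WT intact replicate 4, where the change was -1.10, without each WT ovx library and without the filter on low values. Without both libraries that stood apart the change was also -1.10 and was called (limma adjusted p = 0.0171). Hoxa11 stood at 29.3, 4.20 and 0.303 FPKM and Hoxd10 at 12.3, 4.28 and 0.380. In replicate 1, Hoxa11 was above and Hoxd10 just below every WT ovx library, and neither gene was called. Cell markers moved in the same comparison: 9 of 10 smooth muscle markers, all 8 blood endothelium markers, all 3 tested erythrocyte markers and 4 of 10 stroma markers were called lower in WT intact, and 7 of 10 epithelium markers higher. Their part in the Hox differences was not tested.

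In KO uteri, 11 members were lower in intact than in ovx and none higher, against 15.9% of all tested genes called and 8.74% called lower. They were Hoxa3 to Hoxa7, Hoxb4, Hoxb5, Hoxc4, Hoxc6, Hoxd3 and Hoxd4, all of paralog groups 2 to 8. Of these, 8 were called whichever library was left out, while Hoxb5, Hoxd3 and Hoxd4 were each called in only 1 of 6 cases: Hoxb5 without KO ovx replicate 2, Hoxd3 and Hoxd4 without KO ovx replicate 4. Hoxd4 then ranged from -1.89 to -0.91. In the same comparison 3 of 5 tested lymphatic and 2 of 8 blood endothelium markers were called higher, and their part was not tested. The KO intact libraries were close together in the uterine paralogs: Hoxa10 stood at 22.4, 15.0 and 17.6 FPKM, Hoxa11 at 15.8, 10.6 and 14.8 and Hoxd10 at 8.19, 10.3 and 10.8. All were above KO ovx replicate 4, Hoxa10 and Hoxd10 were below the other KO ovx libraries, Hoxa11 overlapped with them, and none was called. Hoxb6 stood at 11.9, 20.6 and 18.9 FPKM, Hoxb7 at 11.5, 15.5 and 20.0 and Hoxb8 at 8.34, 8.77 and 11.2 in KO intact. Without the 2 libraries that stood apart, 13 members were called lower, with Hoxa9, Hoxa10 and Hoxc9 gained and Hoxb5 lost. The shares of all tested genes given above are of the fit with all libraries. For the gained members, the KO ovx replicate 4 left out was the lowest of its group. Because no set of libraries held both states, the presence of ovaries and the set cannot be told apart in either genotype. The response to ovaries differed between genotypes for Hoxb8 alone, by -2.23 ± 0.59 (limma adjusted p = 0.0447), against 4.63% of all tested genes called, 3.6% as lower. That call ended without KO ovx replicate 4, without WT intact replicate 4 and without each of 8 other libraries.

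**Figure D4:**
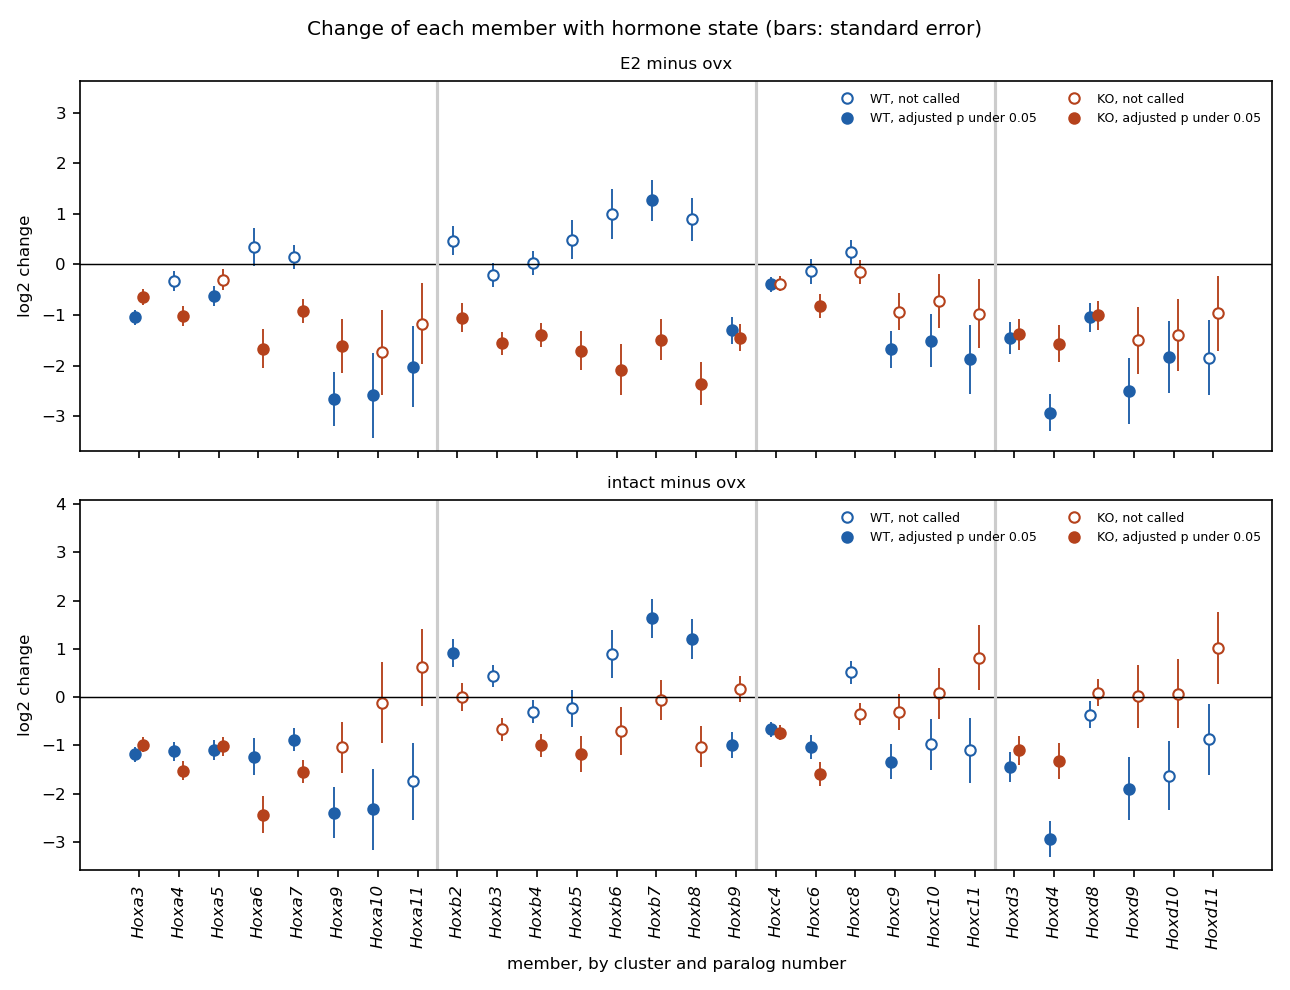
Log2 change of each tested Hox member from ovx to E2 (top) and from ovx to intact (bottom), in WT and KO, with bars of 1 SE and filled points for an adjusted p under 0.05. In the top panel Hoxb2 to Hoxb8 lie near or above 0 in WT and between -1.05 and -2.36 in KO, while Hoxa9 to Hoxa11 and all HoxD members lie below 0 in both.

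The loss of Tsc2 was examined within each hormone state, and few Hox members differed. In intact uteri, 1 of 28 members was called, against 2.18% of all tested genes, 1.19% as higher. This was Hoxb9, at 1.78, 0.619 and 0.120 FPKM in WT and 3.84, 4.29 and 5.22 in KO. Every KO library was above every WT library (log2 change 1.66 ± 0.27, limma adjusted p = 0.006). Hoxb9 was called whichever library was left out, without both libraries that stood apart, and had log2 differences of 1.64 and 1.71 within the 2 sets that held both genotypes. Members of paralog groups 9 to 11 all had positive log2 differences, from 0.53 to 1.66, with only Hoxb9 past the threshold. That shared direction rested on WT intact replicate 4: without both libraries that stood apart, the difference was 0.03 for Hoxa10, 0.11 for Hoxc11 and -0.20 for Hoxc10. Blood endothelium markers moved in the same comparison, with 4 of 8 called higher and sums of 1.76 to 10.98 FPKM in WT intact and 23.9 to 60.9 in KO intact. Of 5 tested lymphatic endothelium markers 3 were called higher, as was the globin gene Hbb-b1. Smooth muscle sums were 73.6 to 464 and 494 to 1719 FPKM, with Des alone called. The part of these markers in the Hoxb9 difference was not tested.

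In ovx uteri, Hoxb3 and Hoxb8 were called higher in KO, 2 of 28 members against 5.42% of all tested genes, 4.63% as higher. Hoxb8 stood at 3.35, 4.74 and 6.54 FPKM in WT ovx against 17.0, 12.2 and 38.5 in KO ovx (log2 change 1.88 ± 0.42, limma adjusted p = 0.0198). Hoxb3 stood at 2.95, 3.41 and 3.70 FPKM against 6.25, 5.41 and 10.9 (log2 change 0.92 ± 0.23, limma adjusted p = 0.0347). All 8 HoxB members had positive differences, and 13 of 28 members were higher in every KO than in every WT library, against 26.8% of all tested genes. Both calls ended without KO ovx replicate 4, where the log2 changes were 1.42 for Hoxb8 and 0.65 for Hoxb3. Both calls also ended without WT ovx replicate 1 and without WT ovx replicate 2. The WT ovx libraries held Epcam at 9.38 to 13.3 FPKM and the KO ovx libraries at 15.9 to 50.8, and the 10 epithelium markers summed to between 55.3 and 122 FPKM against between 152 and 578, with Cldn4 alone called higher. Its part in the HoxB levels was not tested.

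In E2 uteri, Hoxb7 alone was called, at 17.8, 13.1 and 17.9 FPKM in WT and 2.70, 9.46 and 4.81 in KO. The KO libraries were all lower (log2 change -1.49 ± 0.41, limma adjusted p = 0.0352), against 8.49% of all tested genes called, 3.58% as lower. In the same comparison 4 of 7 neutrophil markers, Csf1r of macrophages and Cd3e and Cd3g of T cells were called higher in KO and the epithelial genes Cdh1 and Muc1 lower, and their part was not tested. The call of Hoxb7 ended without KO E2 replicate 1, without KO E2 replicate 3, and without WT E2 replicate 1 or 5. Without KO E2 replicate 2, 6 members were called. The shares of all tested genes given above are of the fit with all libraries. Without the 2 libraries that stood apart, which are in neither group but enter the estimate of the spread, Hoxb2, Hoxb6, Hoxb7 and Hoxb8 were called lower. Hoxa10, Hoxa11 and the HoxD members differed by no more than 0.27 in either direction, with standard errors up to 0.84 for Hoxa10. Averaged over the 3 hormone states, Hoxb9 was higher in KO by 0.84 ± 0.16 (limma adjusted p = 0.00764) and was the only member called, against 5.9% of all tested genes, 4.17% as higher. It was called whichever library was left out. Its difference was 1.66 in intact uteri, and 0.50 in ovx and 0.35 in E2 uteri, where it was not called.

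**Figure D5:**
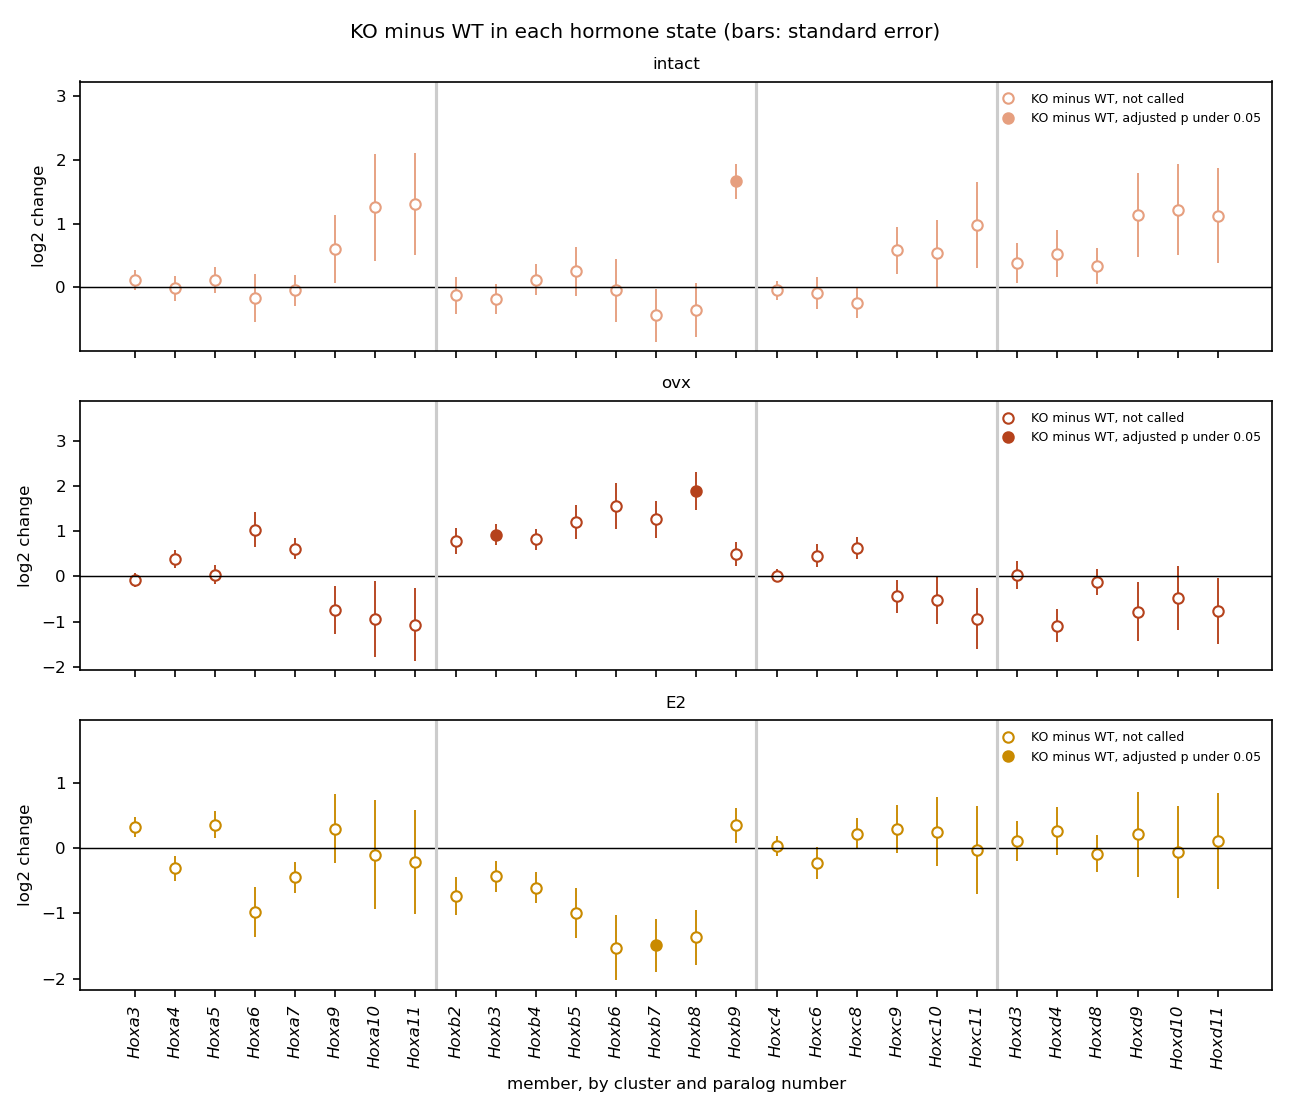
Log2 difference KO minus WT of each tested Hox member, 1 panel per hormone state, with bars of 1 SE and filled points for an adjusted p under 0.05. Hoxb9 is filled in the intact panel, Hoxb3 and Hoxb8 in the ovx panel and Hoxb7 in the E2 panel.

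Partners and regulators of the Hox proteins were read from lists alongside. The 9 TALE cofactors, homeodomain proteins that bind DNA together with Hox proteins, were all tested. In WT E2 against WT ovx, 6 of them were called lower and none higher, against 15.2% of all tested genes lower and 32.3% higher. The largest differences among them were those of Meis2 (log2 change -1.70 ± 0.57, adjusted p = 0.0232), Meis1 (-1.18 ± 0.39) and Pknox1 (-1.13 ± 0.19). In KO E2 against KO ovx, Meis1 had a called log2 change of -1.22 and Pbx4 of -0.42. None of the 9 was called between genotypes in any state. In intact against ovx uteri, Meis2 was called lower in WT and Pbx3 higher in KO.

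Of 18 noncoding transcripts of the clusters, 6 were matched by symbol and 1 was tested, Hoxa11as, the antisense transcript at the Hoxa11 locus. It fell from 9.54, 10.8 and 8.89 FPKM in WT ovx to 1.09, 1.99 and 1.14 in WT E2 (log2 change -2.17 ± 0.72, adjusted p = 0.0216), and Hoxa11 fell in the same comparison. The library kit was stranded per the labels, but how strand was used in the authors' quantification was not stated by the labels, so reads of this pair may be mixed. The 5 microRNAs on the list were listed at 0 in 17 or 18 libraries, in a kit for messenger RNA.

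Polycomb and Trithorax proteins keep Hox genes silent or active. Of 21 tested, 9 were lower and 2 higher in WT E2 than in WT ovx, against 15.2% of all tested genes lower and 32.3% higher. The share called in either direction was near the 47.5% of all tested genes. Cbx7, a chromodomain subunit of Polycomb complexes, changed most (log2 change -2.37 ± 0.31). Mll1, the Trithorax methyltransferase, followed at -1.08 ± 0.15 and Kdm6b, a demethylase of the Polycomb mark, at -0.85 ± 0.18. In KO E2 against KO ovx, 8 were lower and none higher, against 27.1% of all tested genes called and 11.2% called lower. Cbx7 changed by -1.84 ± 0.31. In intact against ovx uteri, 7 were lower and 5 higher in WT, against 45.3% of all genes called, 15.4% as lower and 29.9% as higher. In KO, 4 were lower and 2 higher, against 15.9% called and 8.74% called lower. Between genotypes only Phc2 was called, higher in KO ovx and in the average. Of 14 tested genes of the retinoic acid pathway, which sets the low-numbered ends of the clusters in the embryo, Cyp26a1, an enzyme that degrades retinoic acid, stood at 0.121, 0.174 and 0.0709 FPKM in WT ovx and 11.4, 12.2 and 75.8 in KO ovx (log2 change 4.37 ± 0.52, adjusted p = 0.000274), and Crabp1 was lower (-1.63 ± 0.35). In E2 against ovx, 3 of the 14 were called higher and 3 lower in WT and 1 each way in KO, no larger a share than the 47.5% and 27.1% of all tested genes.

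Among 14 patterning genes of the genital tract, 12 of them tested, 5 were called lower in KO E2 than in WT E2 and none higher, against 3.58% of all tested genes lower. They were Msx1 (-2.38 ± 0.68), Pax8 (-2.11 ± 0.50), the progesterone receptor gene Pgr (-2.05 ± 0.41), Emx2 (-1.71 ± 0.34) and the estrogen receptor gene Esr1 (-1.54 ± 0.33). Esr1 stood at 4.95, 2.99 and 10.04 FPKM in WT E2 and 0.612, 1.99 and 1.22 in KO E2. Averaged over the states, Wnt7a, an epithelial signal that keeps the order of the tract, was lower in KO by -1.63 ± 0.31, with Esr1 and Pgr also called. In KO E2 against KO ovx, 7 of the 12 were called lower, against 11.2% of all tested genes, and in WT E2 against WT ovx 3 were lower and 2 higher, against 47.5% called. Of 5 genes reported downstream of Hoxa10 or Hoxa11 in the uterus, Itgb3 and Lif were higher in WT E2 than in WT ovx. Itgb3, an integrin subunit, had a log2 change of 1.06 ± 0.32 and Lif, a cytokine needed for implantation, of 2.18 ± 0.74. Of all tested genes, 32.3% were called higher in this comparison, where Hoxa10 and Hoxa11 were lower. A link between them was not tested. Emx2, which Hoxa10 is known to repress, had a log2 change of 0.23 ± 0.34 there that was not called.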

How the data were processed

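Uterus messenger RNA was sequenced from stranded single-end libraries, per the labels' protocols. The deposited table holds FPKM values. Per the submitters' processing notes, the authors used Cufflinks 2.0.2 and Cuffdiff. Neither the build nor the aligner and gene models are given in the sources used here. The table's positions for 0 of the 39 Hox members overlapped GENCODE M21 on GRCm38, so only RefSeq positions are printed.

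Values were taken as log2(FPKM + 1), which understates changes of low genes. Genes with at least 1 FPKM in 3 or more of the 18 libraries were tested by limma 3.58.1 in R 4.3.3, a mean per group in 1 fit, eBayes with a trend, two-sided. p-values were adjusted by Benjamini-Hochberg over all 13898 tested genes in each of 10 comparisons, with 0.05 as the threshold. The fit was tested on simulated data. Called members were named. Every library's value was given for the 6 members with the highest mean. From the lists, at most 3 called genes per comparison were named in most cases, largest change first, besides Esr1, Pgr, Tsc2, Wnt7a and Emx2. Members and lists were chosen with earlier results of these data known. Alternatives changed the pseudocount, the filter, the scaling, a replicate block, a term for the sets of libraries, and each library in turn. Sets were found from ratios of values up to 0.05 FPKM, and 3 of 3 other settings gave the same sets. All kept the number of sets at 4, so they could not test that number. The largest share of ratios within a log2 window of 0.02 was 3.56% to 19.6% for pairs within a set. For pairs between sets it was 1.11% to 3.98%, so the ranges overlapped. Figures were drawn in Python 3.11.15 with matplotlib 3.10.9. FPKM hold no counts, so no counting intervals are given. Results for some genes are not reported here.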

Additional observations from a re-analysis of the deposited data

Results flagged for a closer look

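The response to estradiol differed between genotypes, by a test of the difference itself (limma, adjusted p under 0.05), for 8 Hox members. The difference of the log2 responses, KO minus WT, was -3.25 for Hoxb8, -3.08 for Hoxb6, -2.75 for Hoxb7, -2.20 for Hoxb5, -2.01 for Hoxa6, -1.52 for Hoxb2, -1.42 for Hoxb4 and -1.35 for Hoxb3. The response to the presence of ovaries differed for Hoxb8, by -2.23. Beside these stand the HoxB sums of 63.1 to 177 FPKM in KO ovx and 12.2 to 47.9 in KO E2, and Epcam at 15.9 to 50.8 FPKM in KO ovx and 9.37 to 101 in KO E2. With a term for the sets of libraries the call of Hoxb2 ended for estradiol, as did that of Hoxb8 for the ovaries. With a replicate block all 8 calls for estradiol ended, as did that for the ovaries. Only Hoxb7 and Hoxb8 were called for estradiol whichever library was left out, and the call of Hoxb8 for the ovaries held in 2 of 12 cases. The part of the markers in the differences was not tested.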

How the results depend on the processing

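No call of a Hox member reversed its direction under any alternative run. Numbers here are counts of members called. Under the fit with a replicate block, 0 were called for KO against WT in ovx, 0 in E2, 0 for the difference in estradiol response and 0 for that in ovary response, and no other count moved by over 1.5 times. Whether the replicate numbers pair the samples is not known. Each compared pair of groups shared 2 numbers, and deviations of same-numbered libraries correlated between -0.18 and 0.34. Differently numbered libraries were not set beside them, so these values cannot decide it. With a term for the sets of libraries, counts were 0 for KO against WT in ovx, 0 in E2 and 0 for the ovary response, and no fit of intact against ovx could be had. For KO against WT in ovx, quantile normalization gave 4 and leaving out both libraries that stood apart, chosen after seeing the data, gave 0. For KO against WT in E2, no filter gave 0. For the ovary response, a pseudocount of 0.1 gave 0, no filter 0, median-ratio scaling 2, quantile normalization 2 and leaving out both libraries 0. Leaving out each library gave 1 to 4 for KO against WT in intact (4 without WT intact replicate 1), 0 to 5 in ovx, 0 to 6 in E2, 8 to 12 for WT E2 against WT ovx, 2 to 10 for the difference in estradiol response and 0 to 4 for that in ovary response. Of 75 calls of a member in a comparison, median-ratio scaling ended none, quantile normalization 3, the pseudocount of 0.1 9, no filter 10 and the replicate block 18. The term for the sets kept 37 and ended 10, and leaving out both libraries kept 52 and ended 6. The cause was not tested. Scaling moved the median log2 change of all genes by over 0.1 in some comparisons: under quantile normalization by -0.29 in WT E2 against WT ovx, -0.17 in KO E2 against KO ovx, -0.16 in WT intact against WT ovx, -0.12 in KO ovx against WT ovx and 0.15 in both differences of responses, and under median-ratio scaling by -0.14, -0.15 and 0.11 in WT E2 against WT ovx, WT intact against WT ovx and the estradiol response. Depth is unknown, so levels near 0 cannot be told from absence.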

Other observations

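Members outside the main pattern also varied between single libraries. Hoxc8, a gene of the trunk region, was the only tested HoxC member with a positive log2 change in both WT comparisons with ovx, 0.25 ± 0.24 for E2 and 0.52 ± 0.24 (SE) for intact, neither past the threshold in limma. Without both libraries that stood apart, it was called higher in WT intact than in WT ovx. Its level was 0.293 ± 0.058 FPKM (SD, n = 3) in WT ovx, 1.93 in KO ovx replicate 4 and 1.68 in KO E2 replicate 3. Hoxd8 stood in KO ovx replicate 4 at 5.16 FPKM beside 4.89 and 5.07 in the other KO ovx libraries, while Hoxd9 stood at 2.86 beside 11.7 and 17.0. Hoxa6 stood at 25.7 FPKM in KO ovx replicate 4 beside 13.2 and 10.5, above every other library, as Hoxb2 to Hoxb9 were.

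The number of members at 10 FPKM or more ran from 0 in KO E2 replicates 1 and 3 to 8 in WT intact replicate 1 and in KO ovx replicates 1 and 2. Hoxa10 was the highest member in all 3 WT ovx libraries, and in no E2 library. The 39 members summed to 179.6 to 223.5 FPKM in WT ovx, 226 to 253 in KO ovx, 90.0 to 124 in WT E2 and 54.6 to 84.0 in KO E2.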
